A study of Mus musculus with 2 samples.

Results

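The nuclear factor I (NFI) genes are Nfia, Nfib, Nfic and Nfix, the 4 paralogues that encode the NFI family of transcription factors in the mouse. They were taken by name, with earlier results of these data known, and they are 4 of 21938 protein-coding genes of the GENCODE M21 annotation. Open chromatin around them was read from DNase-seq of the urinary bladder. The animals were females of 4 days, of strain B6CASTF1/J, the first cross between C57BL/6J and CAST/EiJ mice. DNase-seq maps the sites where DNase I cuts the DNA of nuclei. There was 1 group of 2 biological replicates, 1 library each, from separately numbered females that the labels list under 1 donor identifier. No treatment, genotype or other group was measured. The spread between the libraries may therefore be partly technical, and no contrast could be tested. The bladder was taken whole, so a small height can come from few cells or from little opening per cell, which cannot be told apart in bulk tissue.

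NFI proteins bind DNA as homodimers and heterodimers at a palindrome of TTGGC and GCCAA, and with lower affinity at a single half-site such as TTGGCA. Their DNA-binding and dimerization domain lies in the N-terminal part of the protein and is largely encoded by the second exon, while the C-terminal parts differ between paralogues and splice forms. In mice, Nfia is known for gliogenesis and for urinary tract development, Nfib for lung and brain maturation, Nfic for tooth root formation, and Nfix for the switch from fetal to later muscle programmes. The family is also expressed in connective tissue and smooth muscle of many organs.

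Peaks had been called by the authors in each library alone, with 96518 peaks in replicate 1 and 122870 in replicate 2 in the looser of their lists, which was used throughout. The height of a peak is the signal that the authors deposited. In each library the heights were whole multiples of a step, 0.00466 in replicate 1 and 0.00417 in replicate 2 (tolerance 0.02 steps). The total number of reads is not known here, and intervals from steps assume that 1 step is 1 counted event and cover counting error only. Peaks that overlapped, within or between replicates, were joined to a region, and a region with a peak of each replicate is called shared. Of cell type markers, promoters had peaks in both replicates for 5 of 6 smooth muscle and 5 of 6 fibroblast genes. The same held for 2 of 6 urothelium, 3 of 5 endothelium, 1 of 5 leukocyte, 2 of 4 peripheral glia and 0 of 4 hepatocyte genes. Over all protein-coding genes the share was 62.3%, so only the smooth muscle and fibroblast lists stood above it.

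In all, 144 regions were assigned to the 4 genes, and 74 of them (51.4%) were shared, against 34.2% of the 156575 regions of the genome. Nfia had 10 shared regions, Nfib 20, Nfic 33 and Nfix 11. Of the 74, 16 were promoter regions, 57 intronic and 1 exonic, and none was distal.

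The sequences of 8 of these regions are given first, because they are the tallest of each gene or hold an NFI half-site under a footprint. A footprint is a short stretch inside a peak that the authors listed as protected from DNase I, as a bound protein can leave it. All are from assembly mm10, plus strand, 5′ to 3′, and show the C57BL/6J reference, from which the CAST/EiJ allele of these animals can differ. Capitals mark the bases that lay under a footprint in both replicates. The tallest promoter region of the family lay upstream of Nfia at chr4:97772161-97772420, and 32 of its 260 bases were under footprints in both replicates.
Nfia promoter: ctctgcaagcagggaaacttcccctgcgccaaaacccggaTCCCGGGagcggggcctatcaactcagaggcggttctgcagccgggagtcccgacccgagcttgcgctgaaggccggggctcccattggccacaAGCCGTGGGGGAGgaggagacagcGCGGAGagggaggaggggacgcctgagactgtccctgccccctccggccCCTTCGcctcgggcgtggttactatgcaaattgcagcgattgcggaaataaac
The tallest shared intronic region of Nfia, at chr4:97868941-97869140 in the intron after the second exon, had 59 of 200 bases under footprints in both replicates. The central run of capitals holds an NFI half-site, as TGCCAA on this strand, and another half-site ends the window in lower case.
Nfia intronic: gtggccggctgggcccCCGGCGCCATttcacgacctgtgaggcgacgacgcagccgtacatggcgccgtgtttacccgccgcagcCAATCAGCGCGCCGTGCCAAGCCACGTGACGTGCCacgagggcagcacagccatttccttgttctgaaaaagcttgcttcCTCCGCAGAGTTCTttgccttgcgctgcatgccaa
The tallest intronic region of Nfib, at chr4:82513201-82513440, had 82 of 240 bases under footprints in both replicates. It was 78.3% G and C and held 5 GC boxes (GGGCGG on either strand), the letters that Sp and Klf factors bind.
Nfib intronic: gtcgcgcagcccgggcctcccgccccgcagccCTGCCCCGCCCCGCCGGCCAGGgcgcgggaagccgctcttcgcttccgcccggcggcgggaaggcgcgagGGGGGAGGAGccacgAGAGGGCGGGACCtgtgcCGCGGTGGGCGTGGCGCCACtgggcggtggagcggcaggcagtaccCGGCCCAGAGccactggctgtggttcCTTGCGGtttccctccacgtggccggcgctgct
Further into the gene, the Nfib region at chr4:82464401-82464580 had 19 bases under footprints in both replicates, all in 1 run that spans a half-site.
Nfib half-site: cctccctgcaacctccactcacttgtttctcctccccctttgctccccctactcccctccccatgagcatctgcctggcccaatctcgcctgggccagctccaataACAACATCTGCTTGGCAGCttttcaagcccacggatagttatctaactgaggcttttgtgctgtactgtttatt
The tallest intronic region of Nfic, at chr10:81432941-81433200, had 64 of its 260 bases under footprints in both. It held no GC box and no half-site in the letters searched, TTGGCA on either strand, though the shorter arm TTGGC does occur in it.
Nfic intronic: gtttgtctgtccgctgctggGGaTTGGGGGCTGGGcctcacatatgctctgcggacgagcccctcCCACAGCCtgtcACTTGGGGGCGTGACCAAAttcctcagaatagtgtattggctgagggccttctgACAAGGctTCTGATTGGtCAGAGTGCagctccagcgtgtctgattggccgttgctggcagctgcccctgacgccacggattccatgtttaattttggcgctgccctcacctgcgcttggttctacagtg
At chr10:81435541-81435740 in the same intron, a half-site lay partly under a footprint shared by the replicates.
Nfic half-site: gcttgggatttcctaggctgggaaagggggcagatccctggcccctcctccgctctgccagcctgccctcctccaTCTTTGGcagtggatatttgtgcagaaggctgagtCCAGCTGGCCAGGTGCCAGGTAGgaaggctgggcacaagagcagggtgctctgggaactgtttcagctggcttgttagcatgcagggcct
The tallest intronic region of Nfix, at chr8:84709241-84709460, had its longest run of capitals over AGGGGGCGC, the core of the site of CTCF, a factor known for chromatin loops and insulation.
Nfix intronic: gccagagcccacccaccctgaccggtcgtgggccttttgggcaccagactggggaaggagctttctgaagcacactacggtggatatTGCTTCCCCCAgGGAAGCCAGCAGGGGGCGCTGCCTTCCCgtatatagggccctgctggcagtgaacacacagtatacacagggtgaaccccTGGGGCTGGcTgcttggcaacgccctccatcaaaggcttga
At chr8:84744081-84744280, in the intron after the second exon of Nfix, a half-site lay wholly under footprints of both replicates.
Nfix half-site: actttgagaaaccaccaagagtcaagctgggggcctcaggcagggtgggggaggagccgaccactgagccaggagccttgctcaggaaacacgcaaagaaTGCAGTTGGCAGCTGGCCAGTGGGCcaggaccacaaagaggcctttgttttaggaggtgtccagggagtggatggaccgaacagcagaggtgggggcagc

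Each of the 4 genes had a peak in both replicates within 500 bp of a start site, as 62.3% of protein-coding genes did (13670 of 21938). The genes have several start sites, which fell into 16 clusters when sites within 1000 bp were chained, and 9 of the 16 clusters had a peak in both replicates. The 62.3% counts genes with a peak at any start, so it is no measure for this count. A share over the start-site clusters of all genes is not given here. The tallest promoter peak of Nfia stood at 4.67 in replicate 1 and 4.09 in replicate 2 (mean 4.38 ± 0.410, SD, n = 2). That of Nfix stood at 1.72 and 1.66 (1.69 ± 0.0449, SD, n = 2), and that of Nfib at 1.53 and 1.23 (1.38 ± 0.211, SD, n = 2). For Nfic the tallest peak was 1.63 in replicate 1, at the Nfic-204 start, and 0.963 in replicate 2, at the Nfic-201 cluster (1.29 ± 0.468, SD, n = 2). In order of level, Nfia was above the other 3 in both replicates, the ranges of Nfix and Nfib did not overlap, and those of Nfib and Nfic did. Among the genes with a promoter peak in both replicates, whose median height was 2.23, Nfia stood at percentile 86.0, Nfix at 38.0, Nfib at 30.4 and Nfic at 28.2. With a window of 1000 bp the height of Nfib rose to 2.70, because a taller region just upstream then counted as promoter, and Nfib then stood above Nfix.

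The Nfia peak that set its level was not at the start used by most of its transcripts. It lay upstream of Nfia-208, a protein-coding transcript that starts before the others, with 1002 steps in replicate 1 (height interval 4.38 to 4.96, 95% exact Poisson) and 980 in replicate 2 (3.83 to 4.35). The cluster of 5 transcripts that holds the reference start (Nfia-202) had only 1.12 and 0.738 (0.930 ± 0.272, SD, n = 2). The internal start of Nfia-206 had 0.494 and 0.446, and that of Nfia-207 had no peak in either replicate. Nfia overlaps E130114P18Rik, a gene on the opposite strand with starts beside the reference cluster of Nfia. Peaks in the first part of Nfia therefore lie in both genes and cannot be given to one of them. The tall peak upstream of Nfia-208 lies before the body of Nfia but inside that of E130114P18Rik. It counts for Nfia only by its distance to the Nfia-208 start, so it cannot be given to 1 gene either.

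In Nfib, 10 transcripts start in a single cluster, which carried the peaks at 1.53 and 1.23. Nfib-212, which starts about 200 kb farther upstream, and the internal start of Nfib-211 had no peak in either replicate. Nfic was open at 3 of 5 clusters. Nfic-204 had 1.63 and 0.942, the cluster of Nfic-201, Nfic-202 and Nfic-203 had 1.05 and 0.963, and the internal start of Nfic-205 had 1.12 and 0.796. The outermost start, that of Nfic-207, had a peak of 0.391 in replicate 1 only, and Nfic-206 had none. In Nfix, the cluster of Nfix-203 and Nfix-204 had 1.72 and 1.66, and the outermost cluster of 3 transcripts had 1.23 and 1.25 at peaks that lay apart in the replicates. The internal cluster of Nfix-207 and Nfix-208 had 0.880 in replicate 2 only, and Nfix-206 had none. Thus every promoter cluster with a peak, but the outer one of Nfia, stayed under the genome median of 2.23. That median takes only the tallest peak of each gene with a peak in both replicates, so it is no measure for single clusters. With a window of 1000 bp the main Nfib cluster stood above it, at 2.70.

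**Figure D1:**
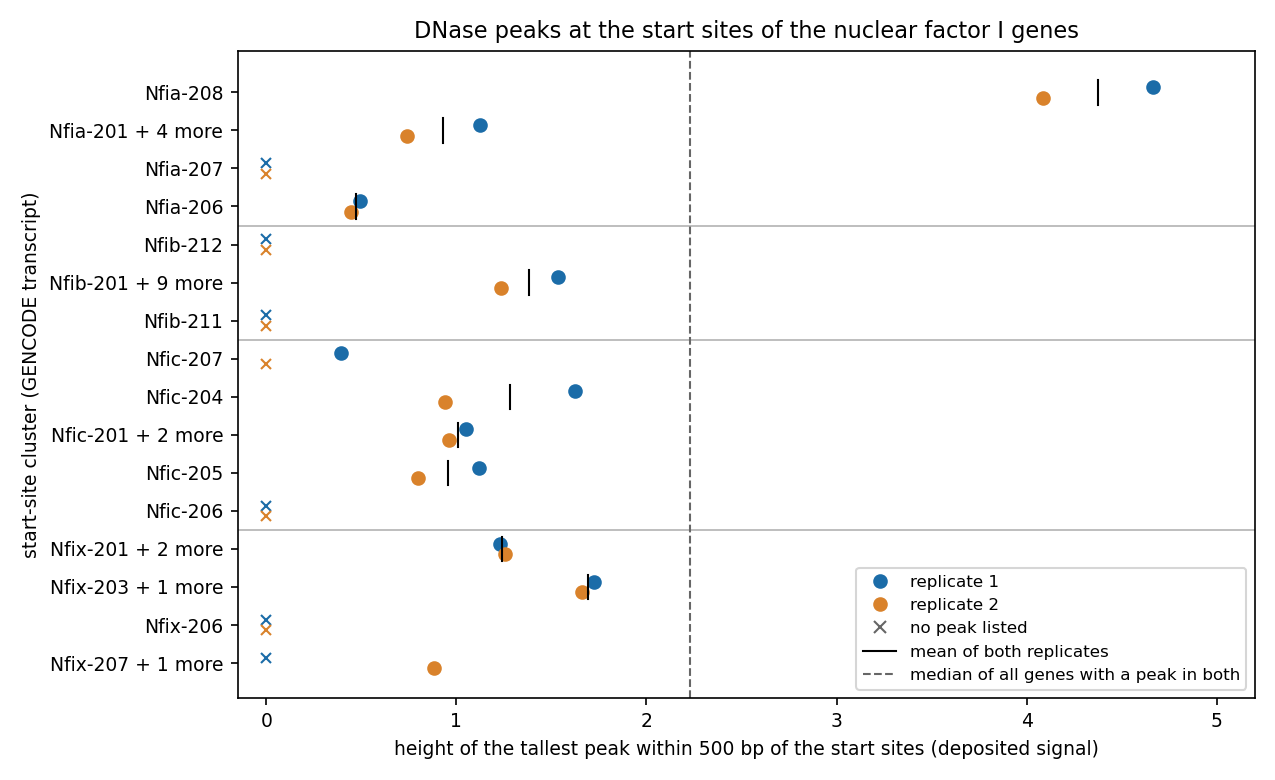
Height of the tallest DNase peak within 500 bp of each of the 16 start-site clusters of the 4 genes (x axis, deposited signal) by cluster (y axis, named by its first transcript), with a dot per replicate, a bar at the mean and a cross where no peak was listed. The Nfia-208 cluster, at 4.67 and 4.09, is the only one right of the dashed line at 2.23. That line is the median of the tallest promoter peak per gene, so it is no measure for single clusters.

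Most of the family's shared regions counted as intronic. Nfia had 6 shared intronic regions, Nfib 17, Nfic 27 and Nfix 7, while 24.2% of protein-coding genes had at least 1 and the median gene had 0. Of the NFI regions, 2 in Nfia, 10 in Nfib, 15 in Nfic and 2 in Nfix lay upstream of the reference start. They count as intronic because another transcript starts farther out. In Nfib that outermost start (Nfib-212) had no peak in either replicate, and in Nfic (Nfic-207) it had 0.391 in replicate 1 only. All counts, ranks and densities of intronic regions include them. By the number of shared intronic regions Nfic ranked 17th of 21938 genes, Nfib 48th, Nfix 238th and Nfia 323rd, ties given the better rank. Gene length differs between the 4, from 59.5 kb (Nfic) and 100 kb (Nfix) to 346 kb (Nfia) and 416 kb (Nfib). Per 100 kb of gene, Nfic had 45.4 shared intronic regions, Nfix 6.97, Nfib 4.09 and Nfia 1.73. Among the 5007 genes of at least 50 kb, whose median was 0.643 per 100 kb, that put Nfic at percentile 99.98, Nfix at 97.3, Nfib at 93.4 and Nfia at 75.6. Shared intronic regions covered 20% of the length of Nfic, 2.09% of Nfix, 0.933% of Nfib and 0.424% of Nfia.

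**Figure D2:**
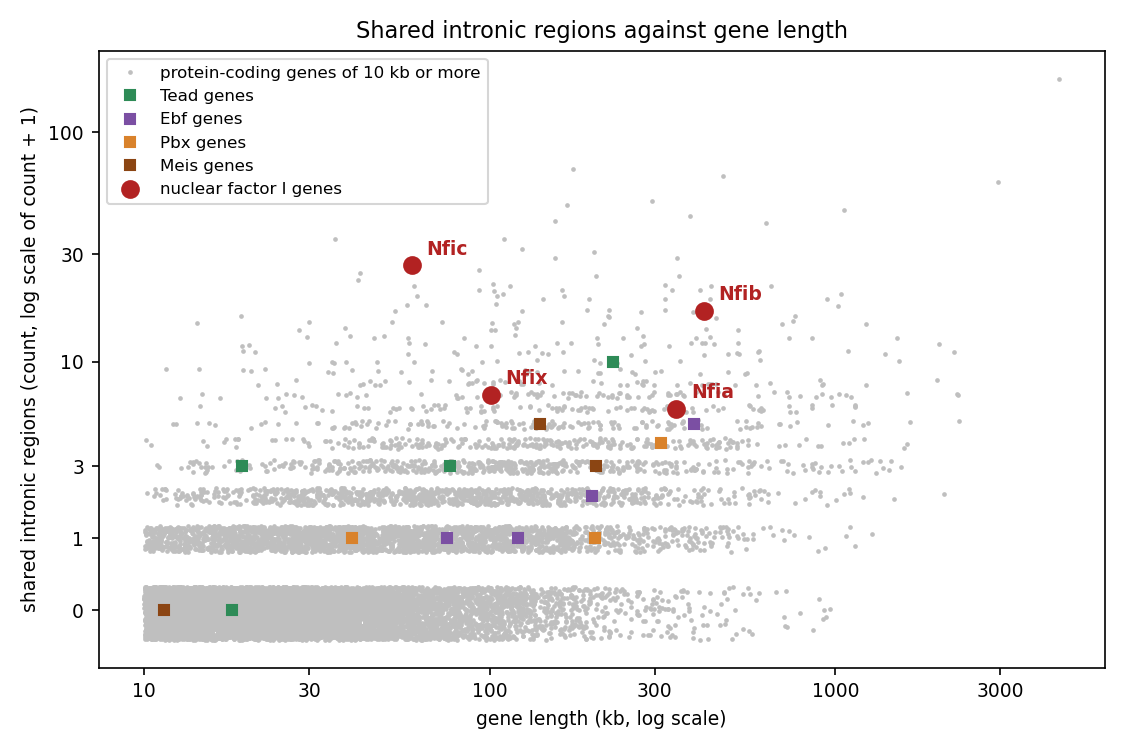
Shared intronic regions per gene (y axis, log scale of count + 1) against gene length (x axis, kb, log scale) for protein-coding genes of 10 kb or more (grey), with the 4 nuclear factor I genes and 4 other families marked. Nfic, with 27 regions in 59.5 kb, sits highest of the marked genes, and Nfia, with 6 in 346 kb, lowest of its family.

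Many of the Nfic regions were low, and the count fell with a stricter list. With the stricter peak lists of the authors, the 4 genes together had 34 shared intronic regions in place of 57: Nfia 4, Nfib 6, Nfic 18 and Nfix 6. Nfic then ranked 21st, Nfib and Nfix 149th, and Nfia 241st. Of the 27 Nfic regions, 15 were lower than 0.469, the lowest shared intronic region of the other 3 genes, as were 30.7% of all shared intronic regions. Counting only regions over a height of 1, a limit chosen after the heights were seen, left Nfic with 8, Nfix with 6, Nfia with 4 and Nfib with 3, at ranks 7, 15, 35 and 69. Nfix and Nfia thus stood above Nfib with this limit, but not with the stricter lists, where Nfix tied with Nfib and Nfia was below both.

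Heights told the genes apart in another way. Median heights of the shared intronic regions were 1.43 in Nfix (lowest 0.873, highest 1.91), 1.11 in Nfia (0.479 to 3.41), 0.620 in Nfib (0.469 to 4.74) and 0.414 in Nfic (0.175 to 2.58), and the median of all 12635 shared intronic regions was 0.662. The 7 regions of Nfix were the most even, with a ratio of 2.19 between the highest and the lowest. In Nfic that ratio was 14.7. Replicate 2 was the lower one in 46 of the 57 regions (80.7%), as in 69.2% of all shared intronic regions, and median log2 ratios (replicate 2 over 1) were -0.28 in Nfia, -0.30 in Nfib, -0.33 in Nfic and -0.16 in Nfix, against -0.20 over all shared intronic regions (SD 0.41).

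**Figure D3:**
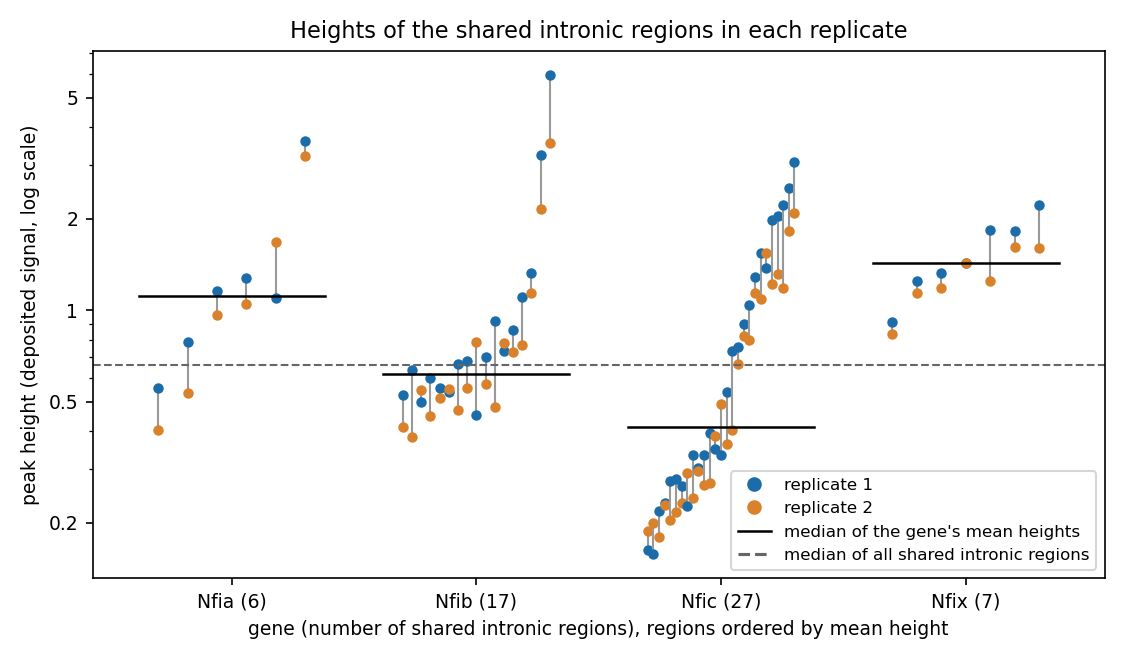
Height of each shared intronic region of the 4 genes (y axis, deposited signal, log scale), ordered by mean within a gene, with 1 dot per replicate joined by a line, a bar at the gene's median and a dashed line at the median of all shared intronic regions (0.662). Nfix has 7 regions of like height, while the 27 of Nfic run from 0.175 to 2.58.

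In Nfia the tallest intronic region, printed above, reached 3.60 in replicate 1 and 3.21 in replicate 2 (mean 3.41). It lay 91.4 kb downstream of the reference start in intron 2, which takes up 49.9% of the gene, and only 118 of the shared intronic regions of the genome were taller. The next in height, at chr4:97773321-97773500 (1.10 and 1.68) and chr4:97775101-97775320 (1.28 and 1.05), lay upstream of the reference start in the part shared with E130114P18Rik. The first of these was higher in replicate 2, unlike the other 5 regions of Nfia. Intron 2 held 2 shared regions in 173 kb, intron 4 held 1 (0.660) and intron 10 held 1 (1.06). The rest of the gene, beyond these, had none.

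In Nfib the tallest intronic region, also printed above, reached 5.95 and 3.54 (mean 4.74), and 38 shared intronic regions of the genome were taller. It lay 8.01 kb upstream of the reference start, and counts as intronic because Nfib-212 starts far upstream of it. The next, at chr4:82506421-82506620, reached 3.25 and 2.15 at 1.21 kb upstream of the reference start, with 82.5% G and C. The third, at chr4:82447321-82447520 in intron 2, reached 1.33 and 1.14. Of the 17 shared regions, 10 lay upstream of the reference start, 5 in the 115 kb of intron 2, and 1 each in introns 6 and 11. Upstream regions ran out to 117 kb before the start, where a region stood at 0.861 and 0.730.

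In Nfic the tallest intronic region reached 3.06 and 2.09 (mean 2.58), 5.90 kb upstream of the reference start (Nfic-201) in the first intron of Nfic-207. The next, at chr10:81413901-81414160 in intron 2, reached 2.53 and 1.83. The third, at chr10:81429621-81429840, reached 2.23 and 1.18. Of the 27 regions, 15 lay upstream of the reference start, 6 in the 6.28 kb of intron 1 and 3 in the 10.6 kb of intron 2. All 6 in intron 1 were at or under 0.713, while the 3 in intron 2 stood at 1.60, 1.68 and 2.18. The only shared exonic region of the family, at chr10:81420313-81421300, was low in both replicates (0.307 and 0.417).

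In Nfix the tallest intronic region reached 2.21 and 1.61 (mean 1.91), in intron 10 toward the end of the gene. The next, at chr8:84737661-84737860 in intron 2, reached 1.83 and 1.61. The third, at chr8:84788961-84789180, reached 1.84 and 1.25 and lay 15.7 kb upstream of the reference start. Intron 2, with 43.8 kb the longest of the gene, held 3 of the 7 regions, intron 10 held 2, and 2 lay upstream. Introns 3 to 9 held none.

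**Figure D4:**
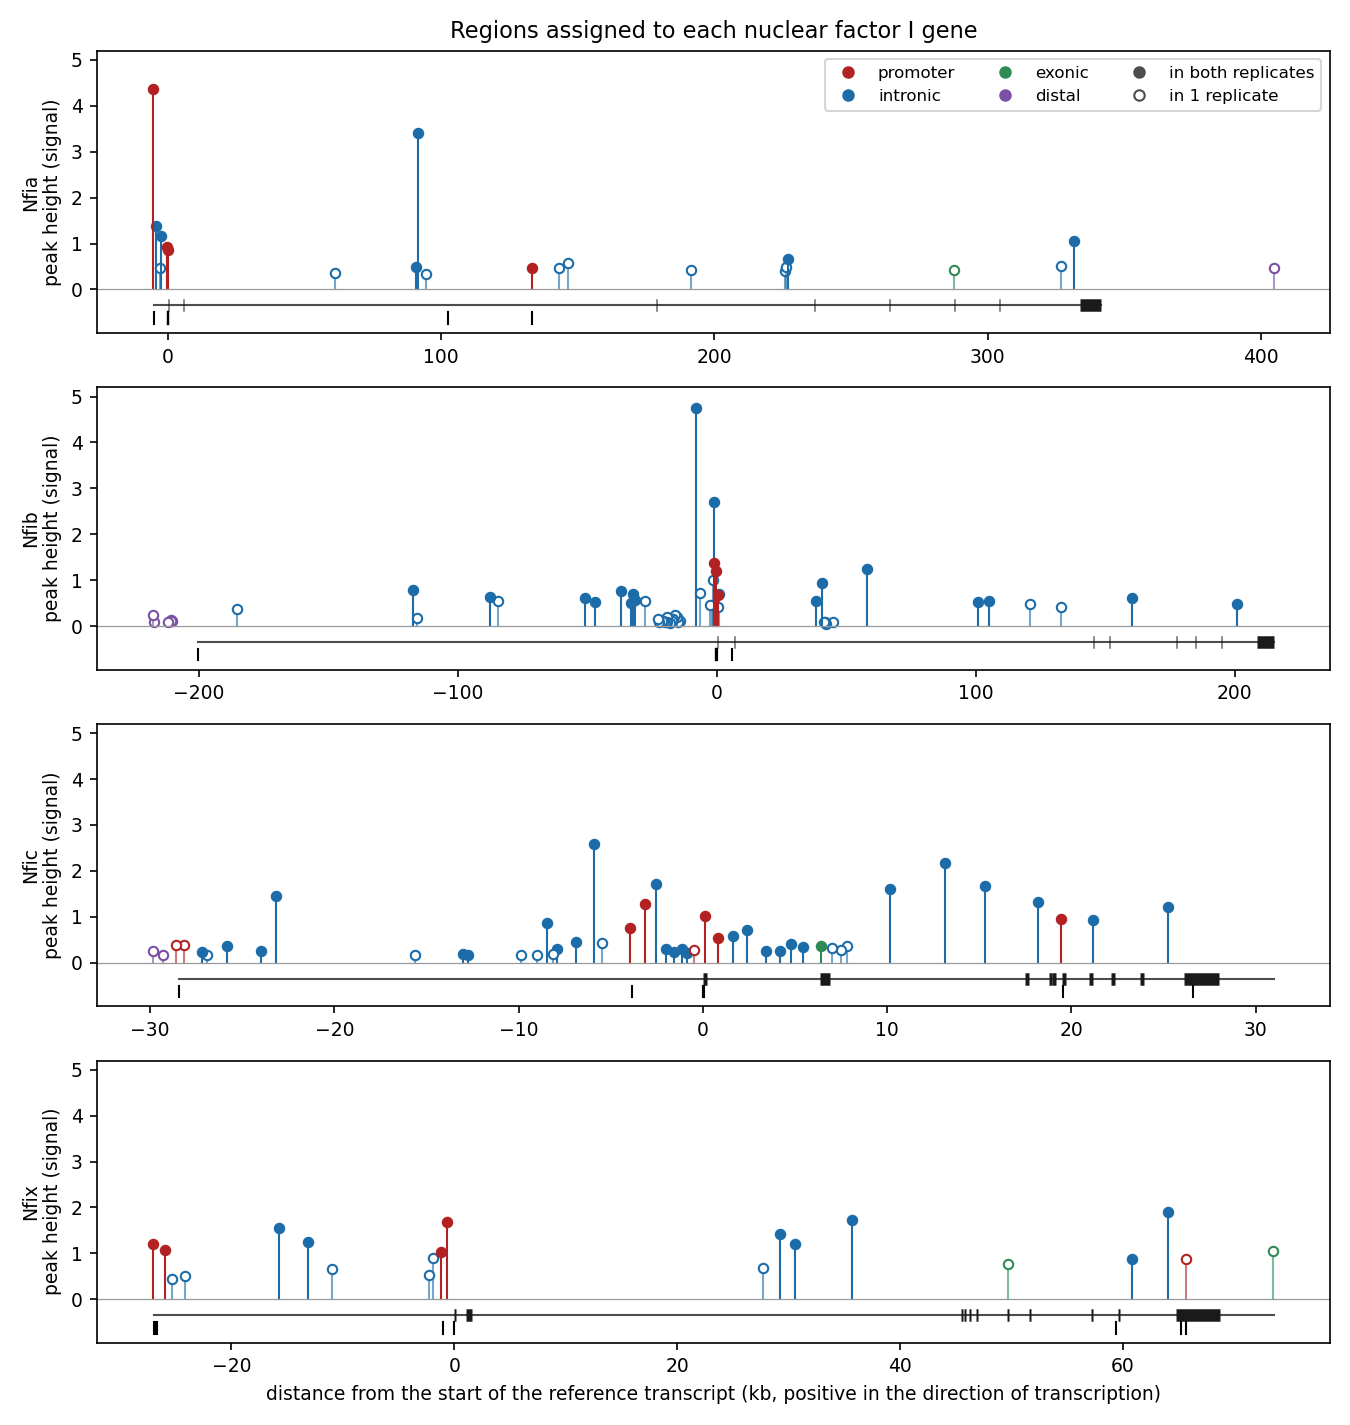
Regions of each gene by distance from the start of its reference transcript (x axis, kb, positive in the direction of transcription) and height (y axis, deposited signal), filled where shared (mean of replicates) and open where called in 1 replicate, coloured by class, above exons of the reference transcript (blocks) and annotated start sites (ticks). The tallest regions of Nfia and Nfib stand at or upstream of the start, apart from the Nfia region of 3.41 at 91.4 kb, and those of Nfic and Nfix are spread along the gene.

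None of the 4 genes had a shared distal region, outside gene bodies and nearest to the gene within 100 kb, whereas 31.0% of protein-coding genes had at least 1. Regions upstream of a reference start but inside the gene body counted as intronic, not distal, as for 10 in Nfib and 15 in Nfic. The space searched was not the same for each gene. Of 200 kb on both sides, 193 kb lay outside other protein-coding genes for Nfib, 100 kb for Nfia, 73.1 kb for Nfix and 47.3 kb for Nfic. Around Nfib these flanks held no shared region of any class. The flanks of Nfia held 6, all given to E130114P18Rik (5 of them intronic). Those of Nfic held 25, in or near 15 other genes, and those of Nfix held 23, in or near 11 other genes. When distal regions were given to the nearest start site in place of the nearest gene body, 1 region was added to the family. Single replicates had distal peaks: 1 of 0.461 by Nfia and 2 by Nfic in replicate 1, and 6 by Nfib in replicate 2.

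Regions called in 1 replicate only numbered 70, of which 44 were in replicate 1 and 26 in replicate 2. Among intronic regions of the family, 51.4% were shared, against 26.7% over all genes. In replicate 1 only 33.3% were called and in replicate 2 only 15.3%, against 27.9% and 45.4% over all genes. The tallest region called in 1 replicate was an exonic one at the end of Nfix in replicate 1 (1.05). Next came an intronic one of Nfib beside its start, also in replicate 1 (1.00). For Nfia the tallest was 0.568 and for Nfic 0.425. Of the 70, 11 had bases with a listed false discovery rate (up to 0.05) in the other replicate. Among them were the Nfib region of 1.00, over all of its 412 bases, and the Nfic region of 0.425, over all of its 380. The share to set beside 11 of 70, over the regions of all genes, is not given here. In Nfib, 24 of the 36 lay in 3 tight stretches of low peaks. One, upstream of the start, held 14 peaks of 0.0698 to 0.242 in 8.91 kb in replicate 1 only. Replicate 2 had 4 peaks of 0.0542 to 0.0959 in 3.46 kb of intron 2, and 6 of 0.0792 to 0.238 in 7.52 kb beyond the Nfib-212 start. In none of the 24 did the other replicate list a rate, and the part of library depth or calling in these stretches was not tested.

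Footprints lay in both replicates in 52 of the 74 shared regions (70.3%). For the 58 regions outside promoters the count was 39 (67.2%), beside 73.5% of all 34507 such regions. By gene it was 7 of 7 in Nfix, 5 of 6 in Nfia, 12 of 17 in Nfib and 15 of 28 in Nfic. Nfic, whose regions had the lowest median height, had the smallest share, and a link between height and footprints was not tested. With the stricter lists the share was 80.9% of 47 regions of the family, promoters included. The share over all genes with those lists is not given here. At promoters it was 13 of 16 regions (81.3%), beside 85.0% of all promoter regions. In the tallest intronic region of each gene, 68.3% to 81.9% of the bases under footprints in replicate 1 were also under one in replicate 2, and 79.0% to 96.5% the other way. In the other regions with a footprinted half-site, the first share was 48.7% in Nfib, 52.6% in Nfic and 51.0% in Nfix intron 2. The other way these were 100%, 100% and 73.5%. The Nfix promoter region had 29.0% and 39.1%. In the Nfia promoter region, replicate 1 had 67 footprinted bases and replicate 2 had 35, with 32 in common.

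The family's own half-site, TTGGCA or its complement TGCCAA, was present in the central 150 bp of 10 of the 58 shared regions outside promoters (17.2%, 95% Wilson interval 9.64 to 28.9), beside 11.6% of all such regions. With the stricter lists it was in 11.4% of 35 regions, beside 10.1% of all, and with the whole region searched in 25.9%, beside 16.7%. Nfib had 5 of the 10, Nfic 3, and Nfia and Nfix 1 each. The full palindrome, TTGGC and GCCAA with 5 bases between them, was in 0 of the 58, and in 0.183% of all. AP-1 letters (TGANTCA) were in 2 (3.45%, beside 5.74%) and TEAD letters (GGAATG) in 2 (3.45%, beside 9.09%). Both are motifs of factors that act in stroma and muscle. E-box letters (CAGCTG) were in 10 (17.2%, beside 15.0%), as many regions as the half-site. GC boxes were in 9 (15.5%, beside 12.3%), and CRE letters (TGACGTCA) in 0. The half-site was thus not the only motif above its share over all such regions, and these differences were not tested. Each of these counts rests on few regions of 4 genes. The Wilson interval treats the 58 regions as independent, which regions of the same gene need not be. The CTCF core AGGGGGCGC, a motif chosen after the sequence of the tallest Nfix region had been read, was in 2 of the 58, beside 2.89% of all. In the Nfix region it lay wholly under footprints of both replicates, and in a Nfic region of 0.920 in intron 7 under a footprint of replicate 1 only.

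Anywhere in the 74 shared regions there were 25 half-sites, and 5 of them (20%, 95% Wilson interval 8.86 to 39.1) had a footprint over at least 3 of their 6 bases in both replicates. Over all shared regions this was so for 14.0% of 8769 half-sites, and the difference was not tested. The interval treats the 25 half-sites as independent, though several lie in the same region and all in the same few genes. With the whole half-site required under the footprint, an overlap rule added after seeing the data, 4 remained (16%, beside 9.65% over all), and the Nfic one was lost. By the first rule each gene had at least 1 of the 5. They were the Nfia half-site at chr4:97869040-97869045, the Nfib one at chr4:82464518-82464523 (region 1.11 and 0.767), the Nfic one at chr10:81435619-81435624 (0.899 and 0.826), and the Nfix ones at chr8:84744186-84744191 (1.43 and 1.43) and chr8:84773890-84773895 in the promoter region of Nfix-203. The Nfix half-site in intron 2 was closest to a full palindrome, with 4 of the 5 letters of the GCCAA arm in place. The Nfib one and the Nfix promoter one had 3, the Nfia one 2 and the Nfic one 0. Over all 8769 half-sites, 4.86% had 4 letters in place and 0.673% had all 5. An E-box (CAGCTG) at chr8:84744190-84744195 overlaps the Nfix half-site in intron 2 and also lay under footprints of both replicates. So did an E-box at chr10:81435652-81435657 in the Nfic region. A match and a footprint together do not show which protein lay there.

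**Figure D5:**
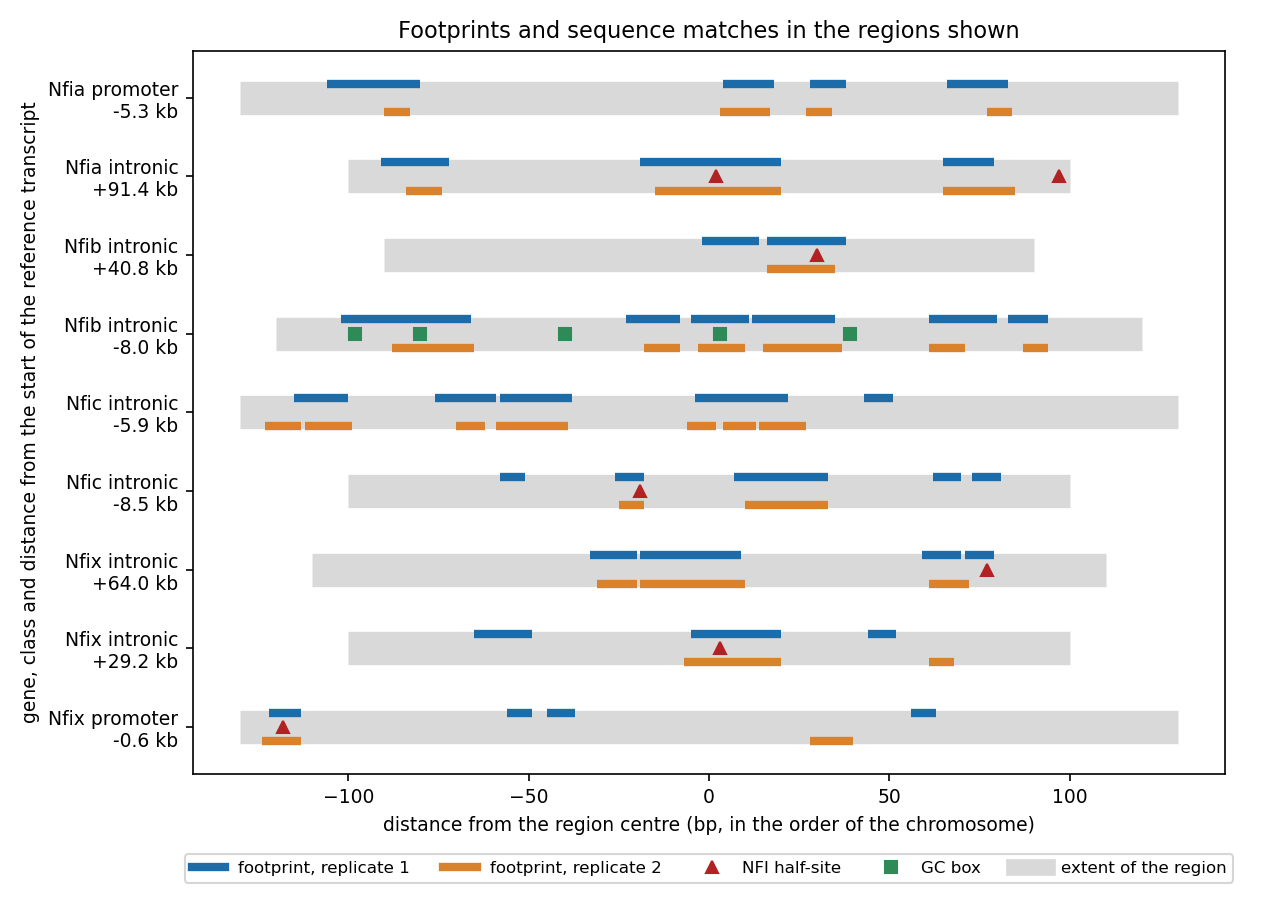
Footprints of replicate 1 (blue) and replicate 2 (orange), NFI half-sites (triangles) and GC boxes (squares) by distance from the centre of the region (x axis, bp) in the tallest regions and in those with a footprinted half-site (y axis, by gene, class and distance from the reference start, grey bars give the extent). In 5 regions a half-site lies under footprints of both colours, and in the Nfia and Nfix introns it sits within 5 bp of the centre.

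Other families of 3 or 4 paralogous factors active in mesenchyme were set beside the NFI genes. All 4 Tead genes (effectors of Hippo signalling), 4 Ebf genes, 4 Pbx genes and 3 Meis genes (homeodomain partners of Hox proteins) also had promoter peaks in both replicates. Shared intronic regions numbered 57 over the NFI genes (6.18 per 100 kb), 16 over Tead (4.69), 9 over Ebf (1.15), 8 over Meis (2.26) and 6 over Pbx (1.07). The NFI density rests on Nfic: the other 3 genes had 30 regions, or 3.48 per 100 kb, which is below Tead. Shared distal regions numbered 0 for NFI, 2 for Pbx, 7 for Tead, 8 for Ebf and 17 for Meis. Meis2 alone had 10 shared distal and 3 shared intronic regions. The median of the tallest promoter peaks was 1.54 for NFI, 1.62 for Ebf, 1.89 for Tead, 2.24 for Meis and 3.13 for Pbx.

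Genes around the NFI factors were read from short lists. Of 4 genes known to act upstream of NFI genes in neural tissue, all had promoter peaks in both replicates: Rbpj (5.80 and 3.64), the DNA-binding partner of Notch, stood highest, then Notch1 (1.52 and 0.901), Sox9 (1.01 and 0.796) and Pax6 (0.787 and 0.309). Of the genes of NFI partner proteins, Foxa1 (0.666) and Ski (1.41) had a promoter peak in replicate 1 only. Of 7 genes known as NFI targets, 6 had promoter peaks in both: the polycomb gene Ezh2 at 4.97 and 3.53, the Notch effector Hes1 at 2.85 and 2.67, Apcdd1 at 2.28 and 2.27, the glial gene Gfap at 2.35 and 1.66, the collagen gene Col1a2 at 1.53 and 1.60, and Fabp7 at 0.773 and 0.609. Mmd2 had none. These 7 genes, with 208 kb in all against 922 kb for the NFI genes, had 30 shared distal and 0 shared intronic regions.

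By promoter height and the numbers of shared intronic and distal regions together, the genes most like each member were found among the 13670 genes with a promoter peak in both replicates. Nearest to Nfia were the clock gene Per2 (4.47, 6 intronic and 0 distal) and Sdk1 (4.17, 6 and 0). Nearest to Nfib were Arhgef11 (1.31, 15 and 0) and Coro2a (1.76, 18 and 0). Nearest to Nfic were Adam12 (1.35, 29 and 0) and Abcc1 (1.08, 22 and 0). Nearest to Nfix were Nrg1 (1.73, 7 and 0) and Fbln1 (1.75, 7 and 0), which encode a neuregulin and the matrix protein fibulin. No member was among the 2 nearest genes of another. Likeness was a Euclidean distance over these 3 measures, scaled by their SD over genes, from 2 replicates each.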

How the data were processed

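Peaks, footprints and false discovery rates of DNase-seq were read as the authors deposited them for each of 2 replicates, on assembly mm10 per the labels. For the aligner and callers no name is given in the sources used here. The signal in the deposited peak lists is the peak height, on a scale that is not stated. The p-value column of the deposited footprint lists is 0.01 throughout, and that of the deposited rate lists is a false discovery rate of at most 0.05.

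The members, lists and motifs were chosen with earlier results of these data known. All 4 members were described, with every start-site cluster, the 3 tallest shared intronic and the 2 tallest shared distal regions and the tallest region of 1 replicate. Genes of the comparison lists and the 2 most similar genes of each member were also named. A gene of the partner list is not reported here. The CTCF motif and the height limit of 1 were added later. Regions were merged peaks of the looser lists that overlapped by at least 1 bp. A region was promoter if a peak lay within 500 bp of a GENCODE M21 start site, otherwise exonic or intronic by its centre, otherwise distal to the nearest protein-coding gene within 100 kb. The reference transcript was the one tagged as principal, with the longest coding sequence. A footprint belonged to a region if its centre lay inside that replicate's peak. Motifs were searched on both strands of the mm10 sequence (RefSeq copy of the assembly). No test was made because there was 1 group. Python 3.11.15, numpy 2.4.6, pandas 2.3.3, scipy 1.17.1, matplotlib 3.10.9 and samtools 1.23.1 were used, and the routines were tested on simulated data. Alternatives were a stricter list, single replicates, other windows, overlaps and assignments, and other footprint and motif rules.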

Additional observations from a re-analysis of the deposited data

How the results depend on the processing

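Of 43 alternative values, 34 kept within the margin of the reported one and 9 moved. The margin was wide. Values within it included 83 intronic regions in place of 57, and half-site shares of 11.4% and 25.9% in place of 17.2%. A promoter height of 0.963 for Nfic, in place of 1.29, was also within it. With the stricter lists, shared intronic regions of the NFI genes fell from 57 to 34 and the share with footprints in both replicates rose from 70.3% to 80.9%. Only regions over a height of 1, a limit chosen after seeing the data, numbered 21. Taken from a single replicate, intronic regions numbered 83 to 97 and distal regions 3 to 6, against 0 distal regions in both. Assignment to the nearest start site gave 1 distal region. Replacing the half-site by the full site moved its share from 17.2% to 0.0%. The promoter height of Nfib was 2.70 with a window of 1000 bp. Open clusters numbered 7 to 10 under every alternative tried. No paired analysis was possible because the replicates form a single group. Depth in reads is unknown, so a low peak called in 1 replicate may be missed in the other.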
